A study of Mus musculus with 8 samples.

Results

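The suprabasal interfollicular keratins were followed in the tail epidermis of mice with a Cre-driven deletion of Ppp1r8 in keratinocytes and in their controls. They were taken by name as Krt1, Krt2, Krt10, Krt77, Krt78 and Krt80, 6 of the 46983 gene identifiers of the count table. Each matched 1 identifier, and all 6 were among the 15638 genes with enough counts to be tested. Ppp1r8 encodes NIPP1, a nuclear protein that binds and regulates the phosphatase PP1. The mice were 8 weeks old and came from a strain with the alleles Ppp1r8tm1.1Itl and Ppp1r8tm1Ave and the transgene Tg(KRT14-cre)1Amc/J. The 4 control mice (CTR) had the genotype K14-Cre/+ Ppp1r8 fl/+, and the 4 knockout mice (SKO) had K14-Cre/+ Ppp1r8 fl/-. Both groups thus carried the Cre transgene, which the KRT14 promoter drives in basal keratinocytes and their descendants. Cells of the sheet in which Cre is not active keep the floxed allele in both groups. Their other allele is + in CTR and - in SKO, so that such cells also differ in genotype. By these genotypes, cells with active Cre lose the floxed allele in both groups and keep a + allele in CTR only. The labels give neither sex nor litter. The epidermis was peeled from tail skin after dispase treatment, with no sorting of cells, and each mouse gave 1 library.

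Keratins form the intermediate filaments of epithelial cells, and every filament is built from heterodimers of a type I and a type II protein. Basal keratinocytes make Krt5 and Krt14. As they leave the basal layer they switch to Krt1, a type II keratin, and its type I partner Krt10, and Krt2, another type II partner of Krt10, is added in the upper layers. Tail epidermis alternates between scales, which make hair-type keratins, and interscale strips with a granular layer.

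Krt10 was the only type I member and lies on chromosome 11 of GRCm38 (chr11:99385254-99389364, minus strand). The 5 type II members lie in the keratin cluster of chromosome 15, all on the minus strand. They are Krt80 (chr15:101347444-101370162), Krt2 (chr15:101810689-101818169), Krt1 (chr15:101845426-101850794), Krt77 (chr15:101858731-101869705) and Krt78 (chr15:101946001-101954287). RefSeq promoters of build GRCm38.p6 matched 4 members by symbol. Their last 100 bases before the start are printed because members with the same core element differed in how they changed. Capitals mark the run of T and A that holds TATATA.
Krt10: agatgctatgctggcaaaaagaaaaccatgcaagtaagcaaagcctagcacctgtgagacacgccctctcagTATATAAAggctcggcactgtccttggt
Krt2: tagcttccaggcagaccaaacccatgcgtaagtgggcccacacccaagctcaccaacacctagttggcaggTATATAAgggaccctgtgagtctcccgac
Krt77: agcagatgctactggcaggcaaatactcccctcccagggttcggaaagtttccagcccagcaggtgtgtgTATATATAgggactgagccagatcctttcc
Krt78: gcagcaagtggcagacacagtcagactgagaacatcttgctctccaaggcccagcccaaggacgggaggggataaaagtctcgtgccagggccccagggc
These windows are chr11:99389365-99389464 for Krt10, chr15:101818170-101818269 for Krt2, chr15:101869706-101869805 for Krt77 and chr15:101954288-101954387 for Krt78, all read on the minus strand. TATATA stood in Krt10, Krt2 and Krt77 and began between 28 and 30 bases before the start. It occurred in 5.25% of the 32851 promoters searched over 250 bases on both strands. TATAAA, which overlaps that run in Krt10, was found in Krt10 and in 12.4% of promoters. CCAAT was found in Krt10 and Krt2 and in 33.8% of promoters, and TTGCNNAA in Krt10 and Krt77 and in 9.56%. CCACCC was found in Krt10 and in 28.1% of promoters. TGANTCA (6.75% of promoters) and GCCNNNGGC (13.7%) were in none of the 4 promoters over the 250 bases. The matches of CCAAT, TTGCNNAA and CCACCC stood between 119 and 214 bases before the start, outside the 100 bases printed. A match is a description of letters and not of a bound site.

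Library totals ranged from 16696212 to 21571935 counts. Ppp1r8 itself stood at 34.7 to 41.6 normalised CPM (read counts scaled to library size) in CTR and at 28.4 to 47.4 CPM in SKO, with a log2 fold change of -0.06 (edgeR adjusted p = 0.789). The labels do not say which part of the gene is deleted, so that this count does not check the genotypes. Over all tested genes, edgeR called 1792 higher and 1908 lower in SKO at an adjusted p under 0.05. Krt5 and Krt14 were abundant in every library, and the summed dermal fibroblast markers (17.9 to 56.8 CPM over all libraries) and endothelial markers (0.927 to 2.52 CPM) were low. Krt10, Krt2 and Krt1 were among the 24 most abundant genes of each library. In bulk epidermis, fewer cells of a type and less RNA per cell cannot be told apart.

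Krt1 and Krt10 rose in SKO epidermis, and the other 4 members did not pass the test. Krt1 rose 7.38-fold and Krt10 rose 1.99-fold. Thus 2 of 6 members were called higher and 0 lower by edgeR, against 11.5% of all tested genes called higher, 12.2% called lower and 23.7% in either direction. At an unadjusted p under 0.05 the count of members lower in SKO was also 0, and by DESeq2 it was 0. The libraries of both groups stood apart without overlap for Krt1 and Krt10 among the members, against 26.2% of all tested genes.

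**Figure D1:**
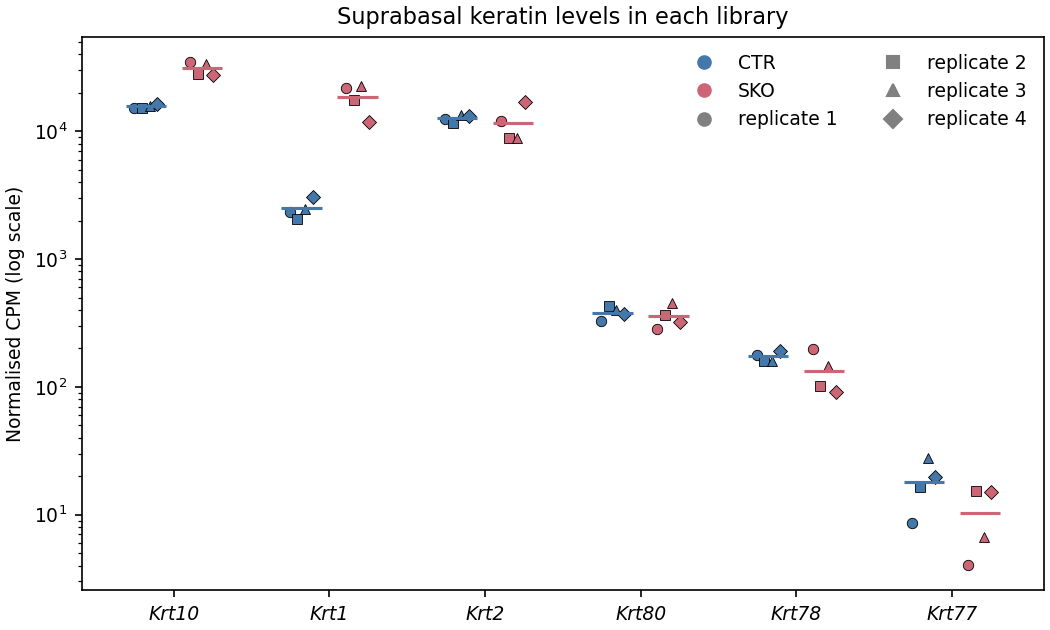
Normalised CPM of each of the 6 keratins (log axis), with 4 CTR and 4 SKO libraries as points, a marker shape for each replicate number and the group mean as a horizontal line. All SKO points of Krt1 and Krt10 lie above all CTR points, and the groups overlap for the other 4 genes.

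Krt1 encodes the type II keratin that first replaces Krt5 in suprabasal cells. Its level was 2319, 2067, 2485 and 3079 CPM in CTR 1 to 4 and 21657, 17592, 22403 and 11811 CPM in SKO 1 to 4. All 4 SKO libraries exceeded the highest CTR library, and SKO 4 was the lowest of its group. The mean ± SD over 4 libraries was 2488 ± 430.2 CPM for CTR and 18366 ± 4854 CPM for SKO. The log2 fold change was 2.88 with a standard error of 0.21 and a 95% interval of 2.41 to 3.35 (edgeR adjusted p = 9.43e-05). Among the 68 genes that averaged 1000 CPM or more, no rise on the log2 scale was larger. Over all tested genes it was the rise in place 23.

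Krt10 encodes the type I partner of both Krt1 and Krt2. Its level was 15266, 15097, 15779.7 and 16456 CPM in CTR 1 to 4 and 34872, 28133, 33751 and 27768 CPM in SKO 1 to 4. The CTR libraries lay close together, and all 4 SKO libraries were higher, with SKO 2 and SKO 4 the lower pair. The mean ± SD over 4 libraries was 15649.6 ± 611 CPM for CTR and 31131 ± 3704 CPM for SKO. The log2 fold change was 0.99 with a standard error of 0.11 and a 95% interval of 0.76 to 1.23 (edgeR adjusted p = 0.000486). This was the rise in place 2 among the 68 abundant genes and in place 425 among all tested genes. In CPM not divided by gene length the differences were alike, at 15878 CPM for Krt1 and 15481 CPM for Krt10. Per kilobase of principal mRNA the CTR and SKO means were 1013 and 7481 CPM for Krt1 and 7474 and 14867 CPM for Krt10. Per kilobase of all annotated exons they were 563 and 4160 CPM for Krt1 and 7403 and 14726 CPM for Krt10. The likeness of the differences therefore depends on the length used. When Xist level was added to the fit, the log2 fold change of Krt10 was 1.00 but its adjusted p was 0.0727 (edgeR), while Krt1 kept its call at an adjusted p of 0.0166. Xist, the X-linked RNA of female cells, was itself lower in SKO, with means ± SD of 792 ± 153 and 419 ± 114 CPM in 4 CTR and 4 SKO libraries. The Xist term and the group can therefore not be fully told apart in that fit. The part of Xist in the result was not tested. An antisense transcript that overlaps Krt10, Gm11940, stood at 2.66 to 4.05 CPM in CTR and 4.65 to 7.13 CPM in SKO (log2 fold change 0.79, edgeR adjusted p = 0.0136). The strand setting of the counting is not given in the sources used here, so that reads of the Krt10 and Gm11940 overlap may not be told apart.

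Krt2 encodes the type II keratin of the upper layers and was, after Krt10, the most abundant member in CTR. Its level was 12389.8, 11682, 13300 and 13107 CPM in CTR 1 to 4 and 12133, 8827, 8813 and 17033 CPM in SKO 1 to 4. SKO 2 and SKO 3 lay below all CTR libraries and SKO 4 above them, so that the groups overlapped. The log2 fold change was -0.11 with a 95% interval of -0.54 to 0.32 (edgeR adjusted p = 0.717). This interval leaves room for a fall or a rise of moderate size. The coefficient of variation of Krt2 was 5.84% in CTR and 33.2% in SKO, while that of Krt10 was 3.90% and 11.9%. Without SKO 2 or without SKO 3 the log2 fold change of Krt2 was 0.01 in each case.

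SKO 4 had the lowest Krt1 and Krt10 and the highest Krt2 of its group. The tail scale keratins, hair-type keratins made in the scales, also varied among SKO libraries. Krt84 was between 20606 and 29672 CPM in CTR and was 7166, 13527, 23226 and 30009.5 CPM in SKO 1 to 4. Krt36 was between 15914 and 22738 CPM in CTR and was 5158, 10024, 17560 and 22922 CPM in SKO 1 to 4. Both were thus highest in SKO 4, within their group, and neither was called (edgeR adjusted p = 0.312 for Krt84 and 0.318 for Krt36). Their part in the levels of the members was not tested. Without SKO 4 the log2 fold change was 3.05 for Krt1 and 1.04 for Krt10, so that both rises were as large without that library.

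The other 3 members were far less abundant. Krt78, a type II keratin of differentiating cells in stratified epithelia, was at 179, 161, 161 and 191 CPM in CTR 1 to 4 and at 197, 101, 145 and 91.5 CPM in SKO 1 to 4. SKO 2, SKO 3 and SKO 4 lay below all CTR libraries, and SKO 1 lay above them. The log2 fold change of Krt78 was -0.37 with a standard error of 0.21 and a 95% interval of -0.84 to 0.09 (edgeR adjusted p = 0.221). Without SKO 1 it was -0.62 and passed the test (edgeR adjusted p = 0.0180). A single library therefore set whether Krt78 was called lower.

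Krt80, a type II keratin of differentiating epithelial cells, was at 326, 428, 399.8 and 372 CPM in CTR 1 to 4 and at 281, 367, 456 and 321 CPM in SKO 1 to 4. The groups overlapped, with the highest and the lowest library both in SKO. Its log2 fold change was -0.10 with a 95% interval of -0.42 to 0.22 (edgeR adjusted p = 0.650). Krt77, a type II keratin related to Krt1, was the least abundant member, at 8.60, 16.6, 27.6 and 19.6 CPM in CTR 1 to 4 and at 4.04, 15.4, 6.66 and 15.1 CPM in SKO 1 to 4. In 3 of 4 CTR libraries Krt77 was above all SKO libraries, and CTR 1 lay among the SKO values. Its log2 fold change was -0.81 with a 95% interval of -1.77 to 0.15 (edgeR adjusted p = 0.198), the widest interval of the 6.

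As a share of all counts of a library, Krt1 was 0.246% ± 0.0403 in CTR and 1.85% ± 0.482 in SKO (SD, n = 4 each; two-sided exact permutation p = 0.0286, adjusted 0.0390 over 15 shares and ratios). The share of Krt10 was 1.55% ± 0.0460 in CTR and 3.13% ± 0.365 in SKO, with the same exact permutation p. That p is the smallest that 4 against 4 libraries can give. All 9 ratios of the family, given below, had this same p, and each of them contains Krt1 or Krt10. They are therefore not independent of these 2 shares. The adjusted value depends on how many such ratios the family holds. The share of Krt2 ran from 1.18% to 1.29% over the CTR libraries and from 0.858% to 1.699% over the SKO libraries (exact permutation p = 0.857), and the shares of Krt77, Krt78 and Krt80 did not pass the test either (exact permutation p between 0.143 and 0.657).

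The 6 members together took 3.07%, 2.97%, 3.11% and 3.27% of all counts in CTR 1 to 4 and 7.07%, 5.67%, 6.39% and 5.69% in SKO 1 to 4. Every SKO library held a larger share than every CTR library. Their means were 3.11% ± 0.125 and 6.20% ± 0.669 (SD, n = 4 each), a difference of 3.10 percentage points. Among the counts of all 54 Krt genes, the 6 members made up 26.9% to 29.8% in CTR and 42.0% to 65.1% in SKO. All Krt genes together took 9.98% to 11.6% of counts in CTR and 10.8% to 13.5% in SKO, and the Krt genes other than the members 7.01% to 8.47% in CTR and 3.797% to 7.86% in SKO. Basal keratins were at 1.55% and 1.48% on average.

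**Figure D2:**
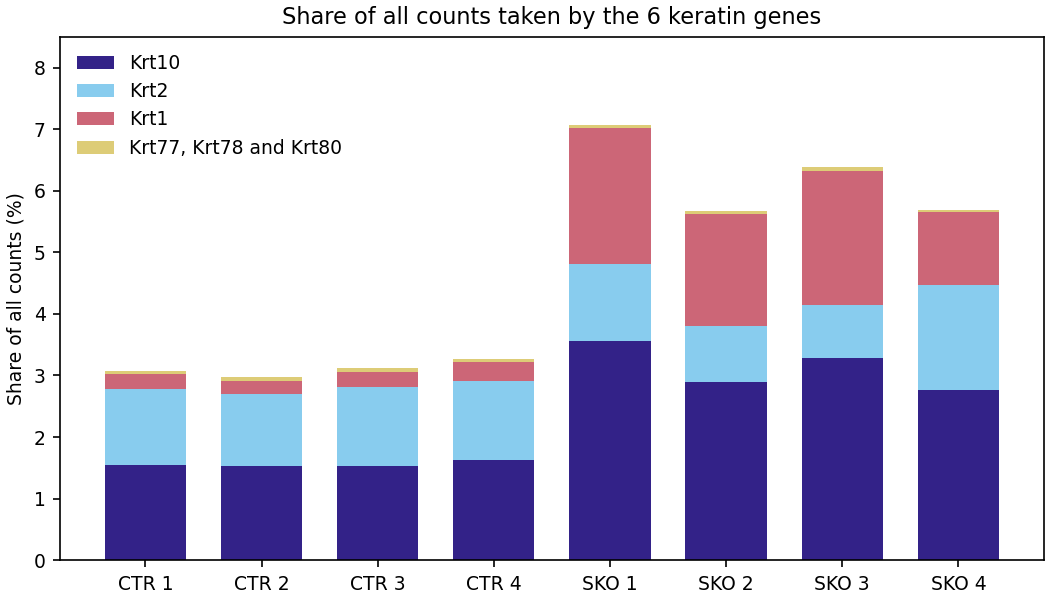
Share of all counts (percent) taken by Krt10, Krt2, Krt1 and the other 3 members in each of the 8 libraries, as stacked bars. The stacks reach 2.97% to 3.27% in CTR and 5.67% to 7.07% in SKO.

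Hair follicle genes fell in the same comparison. By edgeR, 9 of 11 tested hair shaft keratins, 7 of 8 inner root sheath keratins and 56 of 57 Krtap genes were called lower. Over all tested genes the share called lower was 12.2%. The count of inner root sheath keratins was 1 without CTR 2, CTR 3 or SKO 4 and in a robust fit, and 4 without CTR 4. In the robust fit the count of hair shaft keratins was 4 and that of Krtap genes 44. Hair shaft and inner root sheath keratins took 0.650% to 1.24% of counts in CTR and 0.0276% to 0.366% in SKO, and Krtap genes 1.37% to 1.94% in CTR and 0.114% to 0.566% in SKO. With these genes left out of the total, the difference between groups was 1.60 percentage points for Krt1 and 1.55 for Krt10, against 1.60 and 1.58 with them. The hair genes held too few of all counts for their removal to move these shares much. This recalculation was thus bound to change little, and it does not address a change in the mix of cells. The part of follicle cells in the rises was not tested. Of the marker lists for other cells, 5 of 6 tested leukocyte genes rose (summed level 66.3 to 98.8 CPM in CTR and 128 to 191 CPM in SKO). Most of that sum came from Cd74 and H2-Aa. Cd3e and Trdc averaged only 0.888 and 1.44 CPM in SKO, and Ptprc was not called. Also called higher were 4 of 5 melanocyte genes (199 to 313 CPM and 294 to 524 CPM) and 3 of 5 sebocyte genes (446 to 624 CPM and 872 to 1192 CPM). Over all tested genes the share called higher was 11.5%. The melanocyte count was 2 without CTR 2, CTR 3 or CTR 4. The sebocyte count was 2 without CTR 1, CTR 2, CTR 3, SKO 2 or SKO 4. Of 6 markers of basal keratinocytes, 3 were called lower and 0 higher, and 1 lower without SKO 4 (summed level 15136.5 to 16676 CPM in CTR and 14938 to 15563 CPM in SKO). When Xist level was added to the fit, 0 genes of any marker list were called. The 4 tested fibroblast genes and 1 endothelial gene did not pass the test. No gene of these lists was at 0 in all libraries. Summed levels of marker genes do not measure the share of a cell type, and the part of these cells in the result was not tested.

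Ratios of counts within a library need no scaling between libraries. The ratio of Krt1 to Krt10 was 0.152, 0.137, 0.157 and 0.187 in CTR 1 to 4 and 0.621, 0.625, 0.664 and 0.425 in SKO 1 to 4. All SKO ratios were higher, with SKO 4 apart from the other 3. On average the ratio was 3.66-fold higher in SKO (log2 difference 1.87, 95% interval 1.19 to 2.28, two-sided exact permutation p = 0.0286, adjusted 0.0390). Krt1 therefore rose more than its partner.

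The ratio of Krt2 to Krt10 was 0.812, 0.774, 0.843 and 0.796 in CTR 1 to 4 and 0.348, 0.314, 0.261 and 0.613 in SKO 1 to 4. All SKO ratios were lower, with SKO 4 nearest to CTR. The log2 difference was -1.15 with a 95% interval of -1.69 to -0.34 (exact permutation p = 0.0286, adjusted 0.0390). Against Krt10, the log2 difference was -1.42 for Krt78 (95% interval -1.83 to -0.85), -1.10 for Krt80 (-1.81 to -0.66) and -1.89 for Krt77 (-3.91 to -0.05). Each of these 3 ratios was lower in all 4 SKO libraries, with the same exact permutation p of 0.0286. Krt10 itself rose by 0.99 on the log2 scale, so that a gene without change also falls against it. The ratios of Krt2, Krt77, Krt78 and Krt80 to Krt10 therefore do not show a fall of these genes. Of the 5 type II members, Krt1 alone rose against Krt10.

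Krt1 made up 15.8%, 15.04%, 15.7% and 19.0% of the counts of Krt1 and Krt2 together in CTR 1 to 4 and 64.1%, 66.6%, 71.8% and 40.9% in SKO 1 to 4. It was the minor gene of this pair in every CTR library and the major one in 3 of 4 SKO libraries. The ratio of Krt1 to Krt2 was 8.10-fold higher in SKO (log2 difference 3.02, 95% interval 1.56 to 3.84, exact permutation p = 0.0286, adjusted 0.0390). Against basal keratins of the same type, the ratio of Krt1 to Krt5 was 7.62-fold higher and that of Krt10 to Krt14 1.84-fold higher (exact permutation p = 0.0286 for each, adjusted 0.0390).

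The summed counts of the 5 type II members stood at 0.997, 0.951, 1.04 and 1.02 times those of Krt10 in CTR 1 to 4 and at 0.983, 0.956, 0.943 and 1.05 times in SKO 1 to 4. These values overlapped fully between groups, although Krt10 rose. The log2 difference was -0.03 with a 95% interval of -0.14 to 0.15, given as a description of a sum. Divided by the length of the principal mRNA of each gene, the ratio was 0.764 to 0.835 in CTR and 0.787 to 0.865 in SKO, with a log2 difference of 0.02 (interval -0.08 to 0.18). The evenness depends on that length: with all annotated exons of each gene, which makes Krt1 4415 bases long and not 2455, the ratio was 0.708 to 0.773 in CTR and 0.536 to 0.706 in SKO, a log2 difference of -0.32 (interval -0.53 to -0.0049).

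**Figure D3:**
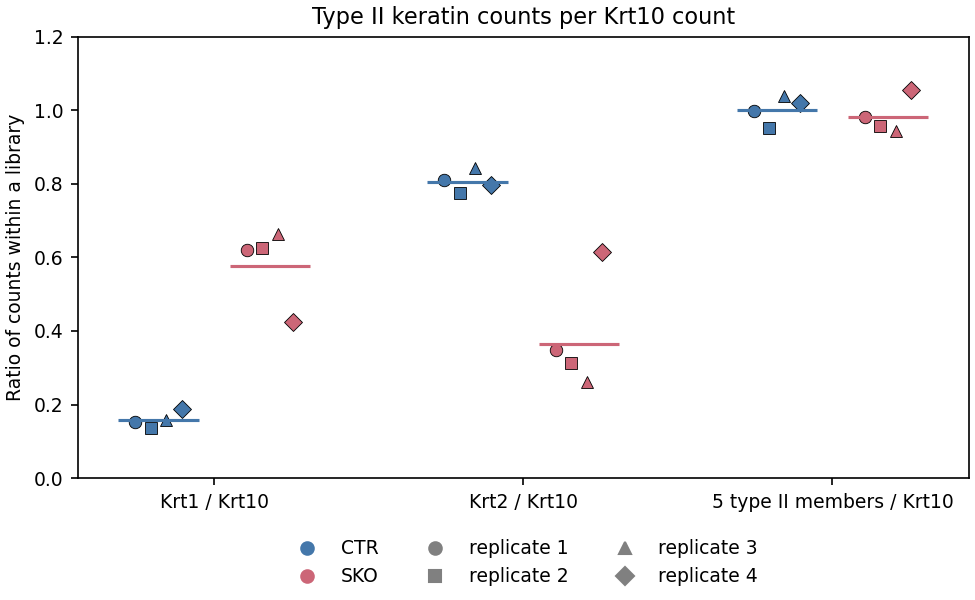
Ratio of counts within a library (linear axis) of Krt1, Krt2 and the 5 type II members summed to Krt10, with 4 CTR and 4 SKO libraries as points and the geometric mean of each group as a horizontal line. Krt1 over Krt10 lies higher and Krt2 over Krt10 lower in every SKO library, and the sum of the type II members over Krt10 stays near equal counts in both groups.

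Levels of different genes were compared per kilobase of principal mRNA. In CTR the order was Krt10 at 7474 CPM per kilobase, Krt2 at 4830, Krt1 at 1013, Krt80 at 124, Krt78 at 50.3 and Krt77 at 6.17. No neighbours in that order overlapped across the CTR libraries. In SKO the order of the means was Krt10 at 14867 CPM per kilobase, Krt1 at 7481, Krt2 at 4478, Krt80 at 116, Krt78 at 38.9 and Krt77 at 3.51. Krt1 (4811 to 9125) and Krt2 (3373 to 6519) overlapped there, with Krt2 above Krt1 in SKO 4. With all annotated exons as the length, the SKO mean of Krt1 was 4160 CPM per kilobase, below that of Krt2 at 4478. By counts, Krt10 stood in place 3 among all genes in every CTR library and in place 1 or 2 in SKO. Krt1 moved from places 13 to 24 in CTR to places 2 to 5 in SKO.

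The type II members lie among genes that changed in other ways. Krt1 lies 27.3 kb from Krt2 on one side and 7.94 kb from Krt77 on the other, and neither neighbour was called. On the far side of Krt2, Krt73, an inner root sheath keratin, was lower (log2 fold change -1.81, edgeR adjusted p = 0.0440), a call that ended with CTR 1, CTR 2, CTR 3, CTR 4 or SKO 4 left out and in the robust fit (adjusted p up to 0.125). Beside Krt78, Krt79, a keratin of the follicle opening and sebaceous duct, rose by 0.58 on the log2 scale (edgeR adjusted p = 0.01002). Krt8, on the other side of Krt78, and Krt7, beside Krt80, did not pass the test (edgeR adjusted p = 0.375 and 0.626). Beside Krt10 on chromosome 11, Krt28, an inner root sheath keratin, had a log2 fold change of -1.73 (edgeR adjusted p = 0.0421), which lost its call without CTR 2, CTR 3, CTR 4, SKO 2 or SKO 4 and in the robust fit (adjusted p up to 0.121). A rise of Krt1 was therefore not shared by the keratin genes directly beside it.

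**Figure D4:**
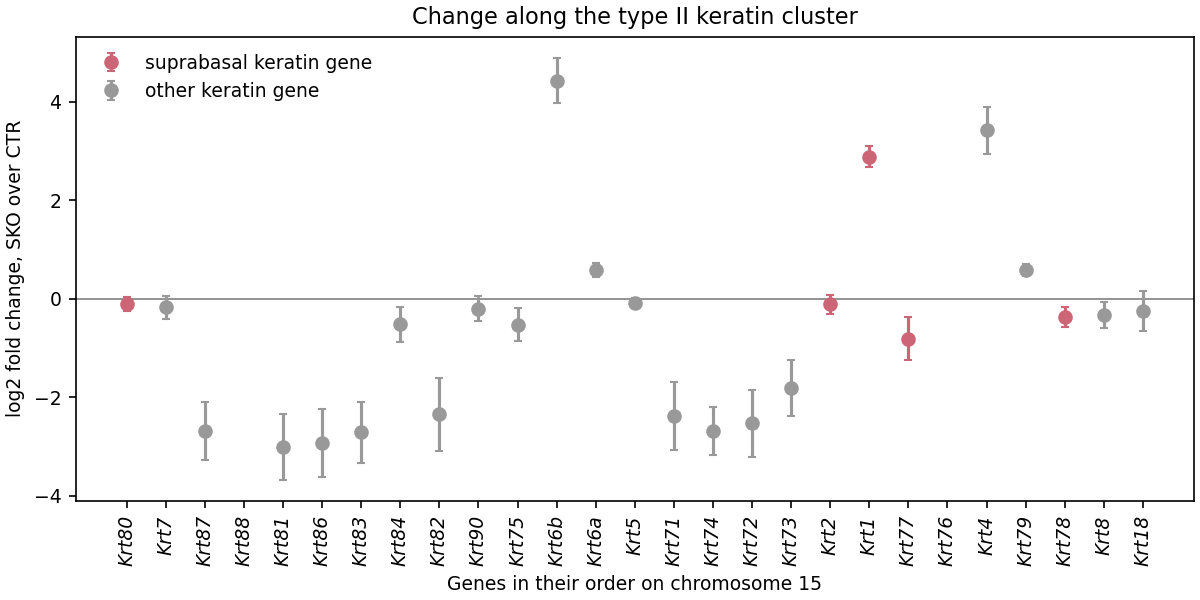
Log2 fold change (SKO against CTR, with bars of 1 standard error) of the keratin genes of the chromosome 15 cluster in gene order, with the 5 suprabasal keratins of the cluster in red and other keratins in grey; genes without a point were not tested. Krt1 at 2.88 stands between Krt2 at -0.11 and Krt77 at -0.81.

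Keratins of other programmes gave a reference for the rise of Krt1. Stress keratins are switched on in wounded or hyperproliferative epidermis. They rose in 4 of 4 cases with a median log2 fold change of 1.43, against a median of -0.0026 over all tested genes. All 4 were called higher by edgeR, against 11.5% of all tested genes. Krt6b rose from 15.1 ± 8.28 to 327 ± 143 CPM, Krt16 from 219 ± 56.9 to 897 ± 147 CPM and Krt17 from 1832 ± 239 to 3265 ± 240.3 CPM (SD, n = 4 each; edgeR adjusted p = 0.000413, 0.000235 and 0.00109). Krt6a rose by 0.59 on the log2 scale (edgeR adjusted p = 0.0191), and this call ended without CTR 1 or without CTR 3 (adjusted p = 0.0569 and 0.0557). All 4 together took 0.604% of counts in SKO, less than Krt1 alone. Of 3 basal keratins, Krt15 fell by 0.54 on the log2 scale (edgeR adjusted p = 0.00293), and Krt5 and Krt14 did not pass the test (log2 fold changes -0.08 and 0.10).

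Of 10 tested keratins of other epithelia, 2 rose and 2 fell, with a median of -0.21. These are shares of 20% each, against 11.5% higher and 12.2% lower over all tested genes. Beside Krt79, named above, Krt23 had a log2 fold change of -0.81 (edgeR adjusted p = 0.0336), and it was no longer called in the robust fit or with SKO 4, CTR 2, CTR 3 or CTR 4 left out (adjusted p up to 0.0895). The other two, Krt4 and Krt19, were below 5 CPM on average.

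Of 20 tested genes of the wider spinous and granular programme, 3 were called higher and 2 lower, with a median log2 fold change of 0.13. These shares, 15% and 10%, lie near those over all tested genes (11.5% and 12.2%). Lor, the main protein of the cornified envelope, rose 1.78-fold (edgeR adjusted p = 0.00345), and Tgm3, a transglutaminase that crosslinks the envelope, rose 1.39-fold (edgeR adjusted p = 0.0120). Klk5, a protease of desquamation, rose 1.46-fold (edgeR adjusted p = 0.0181; 0.0504 without CTR 1). The metallothionein Mt4 and the desmosomal cadherin Dsg1a fell by 0.36 and 0.31 on the log2 scale (edgeR adjusted p = 0.0445 and 0.0252), and each lost its call when any of 6 single libraries was left out. For Mt4 these were CTR 1, CTR 3, CTR 4, SKO 2, SKO 3 and SKO 4 (adjusted p up to 0.116), and for Dsg1a CTR 1, CTR 2, CTR 3, SKO 1, SKO 2 and SKO 4 (up to 0.0700). Dsg1a also has a close copy, Dsg1b, between which reads can be split. Krtdap and Ivl, other genes of suprabasal cells, had log2 fold changes of 0.30 and 0.19 (edgeR adjusted p = 0.214 and 0.362).

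Of 15 genes for proteins that bind or anchor keratin filaments, 2 were called higher and 1 lower, with a median log2 fold change of -0.12. These are shares of 13.3% and 6.67%, against 11.5% and 12.2% over all tested genes. Flg, whose product bundles keratin filaments in the cornified layer, rose 1.99-fold (edgeR adjusted p = 0.0150), and Rptn, of the same family, rose 2.51-fold (edgeR adjusted p = 0.00634). Tchh, the family member of the inner root sheath, had a log2 fold change of -2.27 (edgeR adjusted p = 0.0275), a call that ended without CTR 2, CTR 3 or SKO 4 and in the robust fit (adjusted p up to 0.0916). Dsp, the desmosomal plaque protein that anchors keratins, did not pass the test (log2 fold change -0.13, edgeR adjusted p = 0.432). Of 31 regulators of keratinocyte differentiation, 0 were called higher and 6 lower by edgeR, with a median of -0.14. Called lower were thus 19.4% of them, against 12.2% of all tested genes. Without single libraries this count was between 3 (without CTR 3 or SKO 4) and 11 (without SKO 3), and when Xist level was added to the fit it was 0. Maf and Gata3, transcription factors of the suprabasal layers, fell by 0.84 and 0.53 on the log2 scale (edgeR adjusted p = 0.00203 and 0.00592). With Xist level in the fit, their log2 fold changes were -0.46 and -0.24 and neither was called (edgeR adjusted p = 0.263 and 0.494). Of all genes of the pathway lists, Krt6b and Krt16 alone were called in that fit. Notch2, a receptor of the Notch pathway, had a log2 fold change of -0.40 (edgeR adjusted p = 0.0434), and it lost its call without any single library other than SKO 3 (adjusted p up to 0.105), and had a log2 fold change of 0.06 with Xist level in the fit. Klf4, Trp63 and Notch1, which drive keratinocyte identity or differentiation, did not pass the test (edgeR adjusted p = 0.291, 0.164 and 0.309).

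**Figure D5:**
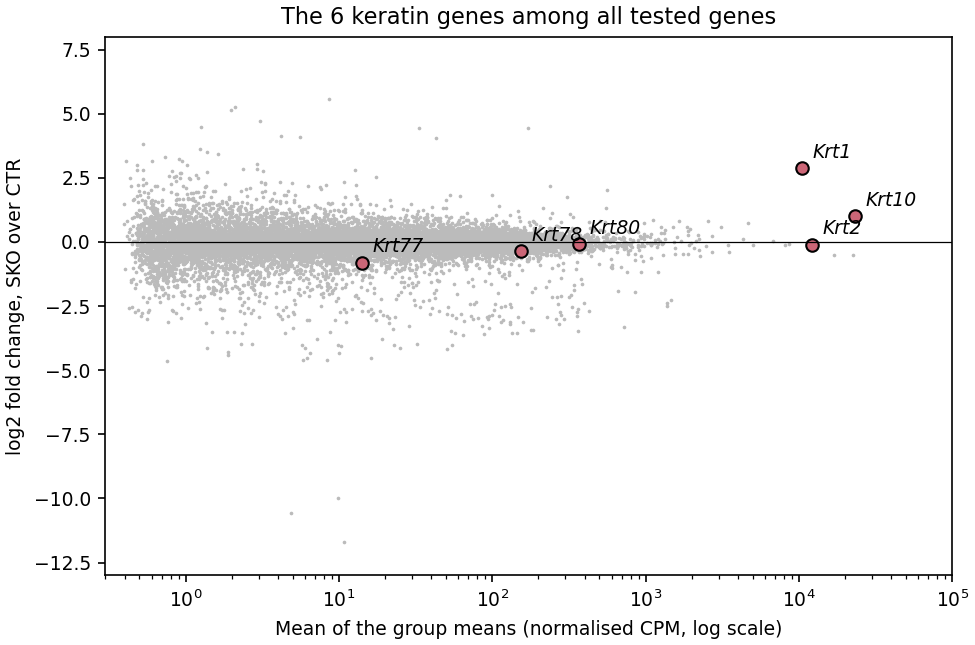
Mean normalised CPM (log axis) against log2 fold change (SKO against CTR) for all 15638 tested genes, with the 6 members marked. Krt1 and Krt10 lie at the abundant end with rises of 2.88 and 0.99, and the other 4 members lie between -0.81 and -0.10.

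Likeness to Krt1 and Krt10 was measured by the SD over the 8 libraries of the log2 ratio of a gene to them, among 10016 genes that averaged 10 CPM or more and had no zero. It is a description over samples of 2 groups and mostly reflects the difference between them. Nearest to Krt1 were Krt16 (SD 0.496), Slc16a3 (0.567), Fetub (0.667), Gpr35 (0.682) and Cyp17a1 (0.702), against a median of 1.56 over all genes compared. Nearest to Krt10 were Cpne2 (SD 0.121), Rbp2 (0.125), Sdcbp2 (0.139), Gm5689 (0.143) and Fam120aos (0.154), against a median of 0.556. Krt1 and Krt10 were less alike, with an SD of 1.03 between them. This SD lies below the median for Krt1 (1.56) but above that for Krt10 (0.556).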

How the data were processed

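RNA of 8 tail epidermis samples was sequenced as stranded poly-A libraries with single 75 bp reads, per the labels' protocols. The deposited values are raw read counts per Ensembl gene, not normalized. Build GRCm38 and the tools featureCounts 1.4.6, edgeR 3.8.6, STAR 2.4.1d, Bowtie2 2.2.4, cutadapt 1.7.1, bedtools 2.17.0, Cufflinks 2.1.1 and SAMtools 1.1 are named, per the submitters' processing notes. The annotation release and the strand setting of the counting are not given in the sources used here.

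Symbols and lengths came from GENCODE M21 (46488 of 46983 identifiers matched). No 75-base stretch of a member's transcripts occurred in transcripts of another gene, so that 0 of these stretches were shared. The test of counts was that of edgeR 4.0.16 under R 4.3.3 (glmQLFit and glmQLFTest, two-sided, TMM, filterByExpr, group as the only term), with Benjamini-Hochberg adjustment over 15638 genes at 0.05. Levels are TMM-normalised CPM, and shares are taken of raw library totals. For shares and ratios, two-sided exact permutation tests ran over the 70 assignments of libraries (scipy 1.17.1). Intervals of their differences were computed at 95%. Of each fixed pathway list, up to 4 called genes averaging 10 CPM or more and with the largest change are named, with members, direct neighbours and the 5 genes nearest in profile. One gene that the rule takes is not reported here. Genes of the marker lists are given as counts and summed levels, with some leukocyte genes also named. Krt4, Krt5, Krt12, Krt14, Krt19, Krt36, Krt84, Krtdap, Ivl, Dsp, Dsg1a and Dsg1b were named after their values were seen. So were Klf4, Trp63, Notch1, Xist, Gm11940, Cd74, H2-Aa, Cd3e, Trdc and Ptprc. The members and the lists were chosen with earlier results of these data known. P-values measure the spread between single mice, and counting intervals are not given for normalised values. Alternatives were other scalings, filters, denominators, DESeq2 1.42.0, a robust fit and an Xist term. A block of neighbouring title numbers, a pseudocount of 1 count and leaving out each library were also used. The fitting script was tested on simulated data.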

Additional observations from a re-analysis of the deposited data

Results flagged for a closer look

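Among 48 groups of 4 libraries checked for the shares and ratios, 2 held 1 library far from the others, and chance alone gives about 1 in 20 such groups. The share of Krt10 in CTR 4 was 1.62% of all counts, above the other CTR libraries, and the gap to the nearest of them was 0.849 of the range of the group. The log2 ratio of Krt1 to Krt10 in SKO 4 was -1.23, below the other SKO libraries, with a gap of 0.851 of the range.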

How the results depend on the processing

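Krt1 and Krt10 stayed called higher by edgeR under other scalings, filters and a robust fit, and by DESeq2, with log2 fold changes of 2.88 to 2.91 and 0.99 to 1.01 over these 8 settings, and no other member was called under them. When Xist level was added to the fit, Krt10 had a log2 fold change of 1.00 (edgeR adjusted p = 0.0727), Krt80 one of 0.51 (edgeR adjusted p = 0.126), 1 member was called higher, 45 genes were called higher and 32 lower over the whole table, and of the genes of the 6 pathway lists 2 were called higher and 0 lower, against 11 and 12 without that term. Xist level differed between the groups, so that the term and the group cannot be fully told apart. The cause of the lost calls was not tested.

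Leaving out 1 library at a time gave log2 fold changes of 2.77 to 3.05 for Krt1, 0.94 to 1.04 for Krt10, -0.35 to 0.010 for Krt2, -1.06 to -0.54 for Krt77, -0.62 to -0.23 for Krt78 and -0.24 to 0.0044 for Krt80. Krt78 passed the test without SKO 1 (edgeR adjusted p = 0.0180), so that between 0 and 1 members were called lower, and Krt2 without SKO 2 or SKO 3 and Krt80 without SKO 1 changed sign near 0. Pathway-list genes called lower numbered 4 to 17, with 7 without CTR 1, 6 without CTR 2, 4 without CTR 3, 7 without SKO 2 and 5 without SKO 4. All genes called higher numbered 1253 to 2058 and lower 1336 to 2312. The summed type II members over Krt10 had a log2 difference of -0.32 per length of all annotated exons, an alternative chosen after seeing the data. Exact tests with 3 against 4 libraries cannot go below 0.0571, so that leaving out a library could only move their values.

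The labels do not say that mice are paired. In order of the numbers in the sample titles, the libraries fall into 4 neighbouring pairs of a CTR and an SKO library. The titles do not say what these numbers stand for, and the replicate numbers used here follow the same order. Over 15638 genes, deviations from the group means correlated at 0.323, 0.431, 0.173 and 0.237 within these pairs, the highest value of each library except SKO 3, which was nearer to CTR 2 (0.243). This is a hint from the data and not from the design. A fit with these pairs as a replicate block, chosen after seeing the data, changed no call of a member: log2 fold changes were 2.86 for Krt1, 0.99 for Krt10, -0.16 for Krt2, -0.43 for Krt78 and -0.11 for Krt80. Krt77, lower in SKO in 4 of 4 pairs, had -0.87 (edgeR adjusted p = 0.0557, against 0.198 without the block). Called lower were 10 of the differentiation regulators and 18 pathway-list genes, and over all genes 2016 were called higher and 2297 lower.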

Other observations

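2 keratins of other epithelia that lie near members rose from very low levels. Krt4, a suprabasal keratin of mucosal epithelia that lies in the cluster between Krt77 and Krt78, averaged 0.268 ± 0.116 CPM (SD) over 4 CTR libraries and 2.97 ± 1.55 CPM over 4 SKO libraries (log2 fold change 3.42, edgeR adjusted p = 0.00142). Krt12, the corneal keratin directly beside Krt10, averaged 0.380 ± 0.162 CPM (SD) over the CTR libraries and 1.02 ± 0.285 CPM over the SKO libraries (log2 fold change 1.42, edgeR adjusted p = 0.0159), from 108 counts in all 8 libraries.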
